A study of Mus musculus with 8 samples.

Results

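The genes described are 9 major histocompatibility complex (MHC) class I heavy chains of the mouse and B2m, the light chain they share, in tumor-associated macrophages (TAMs). They were taken by gene symbol from the deposited expression table, as 10 of its 53247 genes, and all 10 passed the filter on low values. The heavy chains are the classical genes H2-K1 and H2-D1 and the nonclassical genes H2-Q4, H2-Q6, H2-Q7, H2-T22, H2-T23, H2-T24 and H2-M3.

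Class I molecules carry peptides from inside the cell to its surface, where CD8+ T cells read them on the classical molecules. Most heavy chain is held in the endoplasmic reticulum until B2m and a peptide have joined it. The peptides are cut by the immunoproteasome and brought in by the transporter TAP. Most nonclassical molecules have a narrower use, such as signaling to NK cells, and interferons raise the transcription of class I genes in most cell types, macrophages included.

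The tumors were grown subcutaneously from LLC, a Lewis lung carcinoma line of C57BL/6 origin, and the sort for TAMs used CD45, CD11b, F4/80 and surface MHC II. The mice carried the strain label C57/BL6, were 10 weeks old and were sampled 14 days after the implantation, and RNA-Seq was done on 4 WT and 4 miR-21-/- samples labelled as biological replicates. The miR-21-/- mice have the constitutive allele Mir21atm1Yoli, so that cells of the host other than macrophages lack miR-21 as well, while the implanted LLC cells were the same in both groups. The label of miR-21-/- replicate 1 holds 2 numbers, and whether mice were pooled for it is not stated. It was counted as 1 sample. The labels do not name the mice, so p-values measure the spread between these samples.

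Values are CPM, counts per 1e+06 reads, to which the authors added 0.0001. The depth, read from the steps between low values, was 20.2 to 33.4 times 1e+06 reads per sample. Mir21a itself was listed at 0.0001 CPM in all 8 samples, which leaves the labels without a check by the deleted gene. Vmp1, a protein coding gene that overlaps Mir21a, did separate the labelled groups, at 115 to 133 CPM in WT and 373 to 426 CPM in miR-21-/- samples (limma adjusted p = 7.94e-07). Summed markers of macrophages were between 5977 and 6294 CPM in WT and between 5442 and 5823 CPM in miR-21-/- samples, and the markers did not move as one. The Fc receptor gene Fcgr1 rose from 273 ± 35.4 to 458 ± 45.8 CPM and passed the threshold used below, whereas Csf1r (1311 ± 160 and 939 ± 79.1 CPM) and Adgre1, which encodes F4/80 (564 ± 19.4 and 433 ± 27.5 CPM), were lower in miR-21-/- samples without overlap and did not pass it. In bulk RNA, fewer cells of a type and less RNA per cell cannot be told apart. WT replicate 4 stood apart from the other WT samples in these genes, with the highest WT value in 9 of the 10, whereas it had the highest WT value in 25.0% of all tested genes. Where its absence changes the calls of the 10 genes or the correlations among them, both values are given.

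The promoter sequences are shown for the known interferon and NF-kB elements of class I promoters, which 5 of the heavy chains hold side by side in nearly the same letters. Promoters from 250 bases before to 50 bases after the start site were found in RefSeq (GRCm38.p6) for 9 of the 10 genes, all but H2-T24. In H2-K1, H2-D1, H2-Q4, H2-Q6 and H2-Q7 an NF-kB site (GGGATTNCC) is followed closely by an interferon response element (TTTCNNTTC), both searched on both strands and shown in capitals, 5′ to 3′ on the strand of the gene.
H2-K1, chr17:34000429-34000457, minus strand: GGGATTCCCcatctccacagTTTCACTTC
H2-D1, chr17:35262924-35262952, plus strand: GGGATTCCCcatctcctcagTTTCACTTC
H2-Q4, chr17:35379444-35379472, plus strand: GGGATTTCCcatctccccagTTTCACTTC
H2-Q6, chr17:35424678-35424706, plus strand: GGGATTCCCcatctccccagTTTCACTTC
H2-Q7, chr17:35439023-35439050, plus strand: GGGATTCCCatctccccagTTTCACTTC

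H2-T22, H2-T23 and B2m hold neither of these 2 motifs in the window but an interferon regulatory factor site (TTCNNTTTC), and H2-M3 holds the interferon response element with no NF-kB site. The motif is again in capitals, and the site of B2m reads on the opposite strand.
H2-T22, chr17:36042916-36042940, minus strand: ggcttagtTTCACTTTCgaatcccc
H2-T23, chr17:36032808-36032832, minus strand: ctactgctTTCTCTTTCataaagac
H2-M3, chr17:37270125-37270149, plus strand: ctctgaggTTTCACTTCtctgtaac
B2m, chr2:122147540-122147564, plus strand: aagaacatGAAACTGAAaatgggaa

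Of the 27025 genes with a promoter of this length, 8.68% hold the interferon response element (6 of these 9), 9.76% the interferon regulatory factor site (3 of 9) and 1.12% the NF-kB site (5 of 9). The pair of NF-kB site and interferon response element was in 28 genes of all, 5 of which are listed here. The Y box CCAAT was in all 9 and in 41.1% of all genes with a promoter. The third motif was added after the first and the second were seen to miss H2-T22, H2-T23 and B2m. In GENCODE vM21 the H2-D1 and H2-T23 sequences fall within the 5′ untranslated exon of a transcript that starts further upstream. A match of letters is a description and shows no binding.

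The 9 heavy chains lie on chromosome 17 of GRCm38, from the start of H2-K1 at 33996017 to the end of H2-M3 at 37274484, and B2m lies on chromosome 2 from 122147686 to 122153083. All 10 are annotated as protein coding. Some heavy chains share stretches of sequence, so reads could be placed on the wrong gene. Of all stretches of 50 bases in the annotated transcript, those also found in another gene made up 44.7% in H2-T22 (37.9% shared with H2-T10), 34.9% in H2-Q7 (19.3% with H2-Q6), 32.0% in H2-Q6, 28.8% in H2-T23, 24.3% in H2-Q4, 14.3% in H2-D1, 8.79% in H2-K1, 3.23% in H2-T24, 0.576% in H2-M3 and 0% in B2m. The values of H2-Q6, H2-Q7 and H2-T22 are therefore the least certain for a single gene, and sums over related genes, H2-T10 included, are given below.

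All 10 genes had a higher mean in miR-21-/- than in WT TAMs, and in 9 of them the 4 miR-21-/- samples lay above the 4 WT samples without overlap. The nonclassical genes H2-Q6, H2-Q7, H2-Q4 and H2-T23 were about doubled, H2-T22 was 1.60-fold and H2-D1 1.503-fold higher, and B2m, H2-K1, H2-T24 and H2-M3 stood at 1.46, 1.42, 1.37 and 1.14 times their WT level. 6 of the 10 passed the threshold (fold change over 1.5 with an adjusted p of 0.005 or less, from limma on log2(CPM + 1) with the Benjamini-Hochberg method over 13363 genes), namely H2-D1, H2-Q4, H2-Q6, H2-Q7, H2-T22 and H2-T23. Over all tested genes 2.97% passed upward, 4.27% downward and 7.24% in either direction, and 9.61% were higher without overlap. The median log2 fold change of the 10 was 0.63, against -0.10 over all tested genes. The count depended on single samples. It was 8 without WT replicate 4, 2 without WT replicate 1, 2 without WT replicate 3, 2 without miR-21-/- replicate 1 and 3 without either WT replicate 2 or miR-21-/- replicate 2. H2-Q4 and H2-T23 passed in every one of these fits, and no gene of the 10 changed direction.

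These differences are relative to the authors' scaling, under which 41.1% of the genes past the threshold were higher (397 higher, 570 lower). After rescaling by the median of ratios 61.0% were higher (526 and 336), and after quantile normalization 486 were higher and 324 lower. Measured from the median of all tested genes, the median of the 10 genes was 0.74 with the authors' scaling, 0.75 with the median of ratios and 0.64 with quantile normalization. The lowest of them under all 3 scalings, H2-M3, was 0.30, 0.30 and 0.29 above that median. Of the 10 genes, 8 passed the threshold with the median of ratios, where H2-K1 and B2m were added, and 4 with quantile normalization, where H2-D1 and H2-Q7 were not among them.

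**Figure D1:**
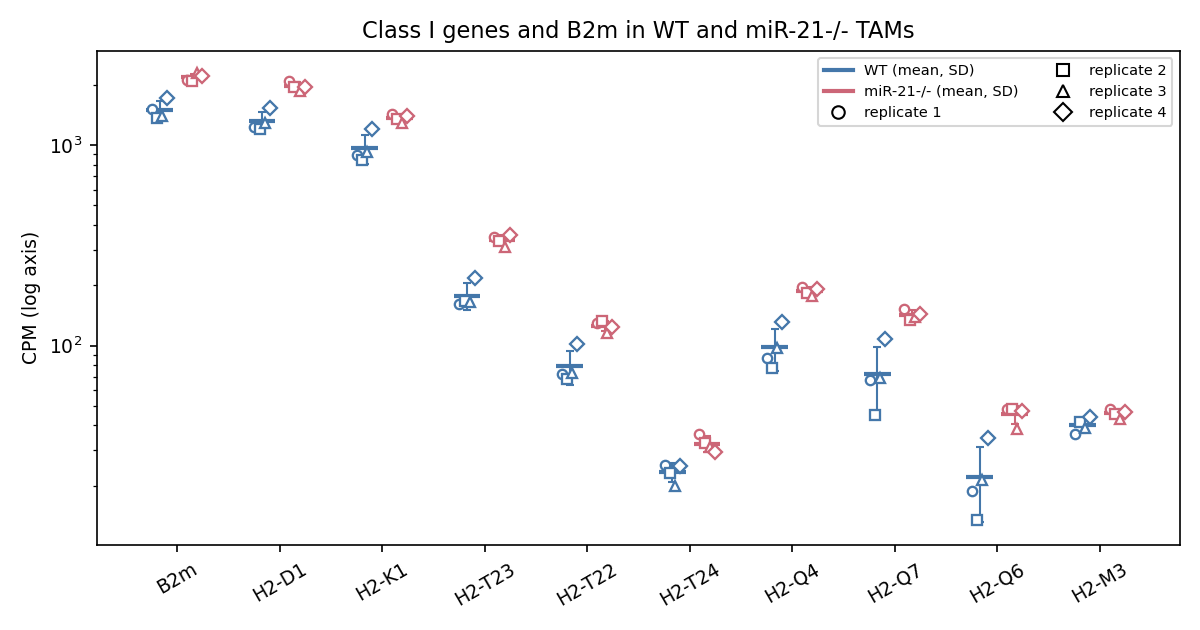
CPM of the 10 genes on a log axis in each of the 4 WT (blue) and 4 miR-21-/- (red) samples, with the replicate given by the marker shape and the mean ± SD by the bars. The groups are apart in every gene but H2-M3, and WT replicate 4 (diamond) is the highest WT sample in every gene but H2-T24.

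H2-K1 encodes one of the classical molecules that present peptides to CD8+ T cells. It was at 892, 846, 929 and 1205 CPM in WT replicates 1 to 4 and at 1423, 1352, 1289 and 1391 CPM in miR-21-/- replicates 1 to 4, or 968 ± 161 against 1364 ± 57.8 CPM (SD, n = 4 each). The 3 lower WT samples were close together and WT replicate 4 lay nearer to the miR-21-/- samples than to them. The log2 fold change was 0.51 (standard error 0.11, limma adjusted p = 0.0051), just short of both limits. Without WT replicate 4 it was 0.62 and passed.

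H2-D1, the other classical gene, stood at 1233, 1201, 1283 and 1538 CPM in WT and at 2085, 1952, 1872 and 1961 CPM in miR-21-/- TAMs. The means were 1314 ± 153 and 1967 ± 87.9 CPM, with no overlap. The log2 fold change was 0.59 (standard error 0.091, limma adjusted p = 0.0011), which is 1.503-fold and hence only just over the fold limit. H2-D1 and H2-K1 thus fell on either side of the threshold with nearly equal values. The ratio of H2-K1 to H2-D1 was 73.4 ± 3.42% in WT and 69.3 ± 1.14% in miR-21-/- TAMs, with overlapping groups (exact permutation test, two-sided, p = 0.0571).

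B2m, the light chain of the heavy chains, was at 1520, 1359, 1401 and 1715 CPM in WT and at 2124, 2086, 2285 and 2208 CPM in miR-21-/- TAMs. The lowest miR-21-/- sample was above the highest WT sample. The means were 1499 ± 160 and 2176 ± 89.1 CPM, and the log2 fold change of 0.54 (standard error 0.089, limma adjusted p = 0.0015) met the limit on p but, at 1.46-fold, not the limit on fold change. Without WT replicate 4 it was 0.61 (limma adjusted p = 0.00057) and passed both.

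H2-T23 encodes Qa-1, which presents leader peptides of other class I chains to the CD94/NKG2A receptors of NK and CD8+ T cells. It was at 161, 166, 164 and 218 CPM in WT and at 347, 333, 311 and 354 CPM in miR-21-/- TAMs. The difference was the clearest of the 10 by its adjusted p, since the means of 177 ± 27.3 and 336 ± 19.3 CPM were far apart beside their spread. The log2 fold change was 0.93 (standard error 0.096, limma adjusted p = 0.000122).

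H2-T22 encodes a molecule that γδ T cells recognize without a peptide. It had 72.0, 68.4, 73.3 and 102 CPM in WT and 130, 132, 115 and 124 CPM in miR-21-/- TAMs. WT replicate 4 stood well above the other 3 WT samples and below every miR-21-/- sample. The log2 fold change was 0.68 (standard error 0.11, limma adjusted p = 0.0016). H2-T10, the paralog that shares most stretches with it, was lower, at 11.3 ± 3.48 and 14.7 ± 0.824 CPM. How reads of the shared stretches were divided between the paralogs is not given in the sources used here.

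H2-T24 had 25.3, 23.1, 19.9 and 25.1 CPM in WT and 36.2, 32.5, 31.2 and 29.4 CPM in miR-21-/- TAMs. It was the only one of the 10 in which WT replicate 4 was not the highest WT sample. The groups did not overlap, and the log2 fold change was 0.46 (standard error 0.090, limma adjusted p = 0.0037), under the limit on fold change.

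H2-Q4 encodes Qb-1, a nonclassical molecule. It was at 86.5, 77.7, 97.4 and 130 CPM in WT and at 196, 183, 177 and 191 CPM in miR-21-/- TAMs. The miR-21-/- samples were within a narrow range, whereas the WT samples were spread. The log2 fold change was 0.95 (standard error 0.13, limma adjusted p = 0.000628).

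H2-Q7 and H2-Q6 belong to the Qa-2 genes, whose products can be anchored in the membrane by a lipid or secreted. H2-Q7 was at 67.5, 44.8, 68.6 and 108 CPM in WT and at 153, 134, 139 and 144 CPM in miR-21-/- TAMs, 1.03 higher on the log2 scale (standard error 0.20, limma adjusted p = 0.0036). H2-Q6 was at 18.8, 13.5, 21.4 and 34.7 CPM in WT and at 48.0, 48.1, 38.5 and 46.9 CPM in miR-21-/- TAMs, 1.08 higher on the log2 scale (standard error 0.22, limma adjusted p = 0.0045). Both had the widest WT spread of the 10 relative to their mean, with WT replicate 2 lowest and WT replicate 4 highest, at 1.79 and 1.94 times the mean of the other 3. They had the largest fold changes of the 10 and also the largest errors. H2-Q6 was 30.4 ± 1.83% of H2-Q7 in WT and 31.9 ± 3.38% in miR-21-/- TAMs, which overlapped (exact permutation test, two-sided, p = 0.429).

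H2-M3 presents peptides that begin with N-formylmethionine, from bacteria or mitochondria. It was at 36.0, 41.4, 38.9 and 43.9 CPM in WT and at 48.0, 45.8, 43.0 and 46.6 CPM in miR-21-/- TAMs. WT replicate 4 was above miR-21-/- replicate 3, so the groups overlapped, as in no other gene of the 10. The log2 fold change was 0.19 (95% interval 0.040 to 0.34, limma adjusted p = 0.0504).

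**Figure D2:**
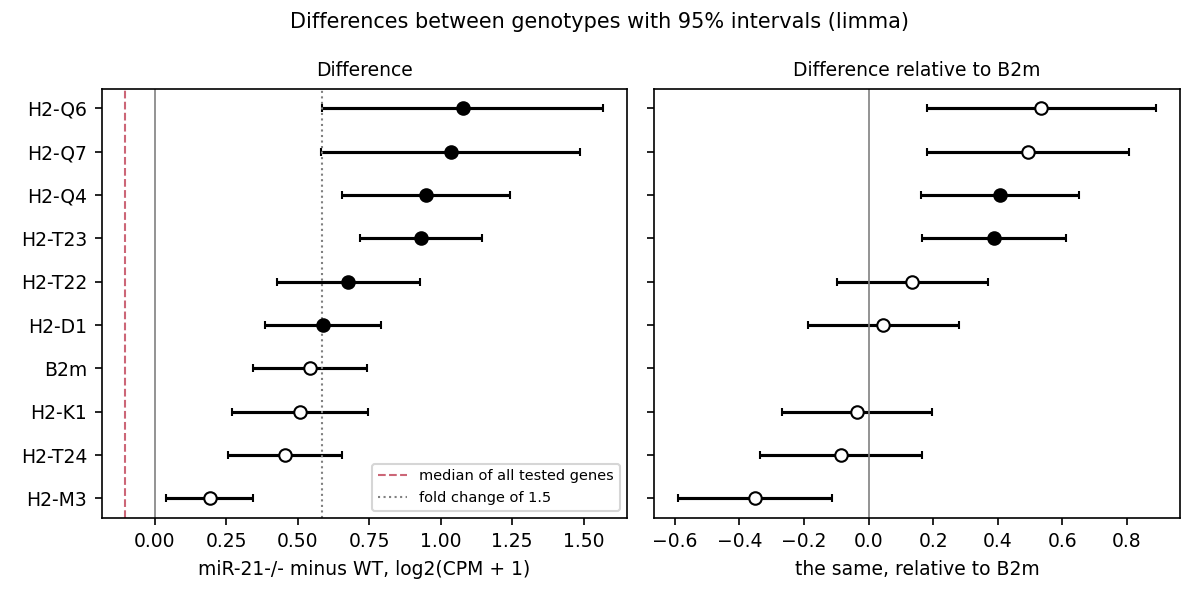
Left, the difference of miR-21-/- minus WT TAMs in log2(CPM + 1) with its 95% interval from limma for each gene; right, the same for each heavy chain relative to B2m in the same sample. Filled points passed the respective threshold. All 10 differences lie above the median of all tested genes (-0.10), and relative to B2m H2-Q4 and H2-T23 lie above 0 and passed.

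Summed levels, in which reads exchanged between the summed genes cancel, gave the same order. The 9 heavy chains together had 2592, 2482, 2695 and 3404 CPM in WT and 4466, 4211, 4015 and 4288 CPM in miR-21-/- TAMs, which is 1.53-fold higher by the means of the log2 sums. H2-K1 and H2-D1 together were 1.47-fold higher (2281 ± 315 against 3331 ± 143 CPM), H2-T22, H2-T23 and H2-T24 together 1.78-fold (279 ± 43.6 against 494 ± 25.7 CPM), and H2-Q4, H2-Q6 and H2-Q7 together 2.01-fold (192 ± 57.9 against 374 ± 18.4 CPM). None of these sums overlapped between the groups. The sums do not cover the stretches that H2-T22 shares with H2-T10, since 4.79% of the stretches of H2-T22 are found in another of the 10 genes. Other genes also share stretches outside the 10. Shared with any gene and with another of the 10 were 28.8% and 8.85% in H2-T23, 24.3% and 11.8% in H2-Q4, 34.9% and 20.1% in H2-Q7, and 32.0% and 24.5% in H2-Q6. H2-T22 and H2-T10 together, a sum added after the data had been seen, had 80.3, 78.5, 83.9 and 118 CPM in WT and 144, 146, 130 and 139 CPM in miR-21-/- TAMs, which is 1.57-fold higher. For each of these sums the exact permutation test, two-sided, gave p = 0.0286, the smallest that 4 samples against 4 allow.

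The H2-Q and H2-T genes together rose more than the classical pair, while H2-M3 and H2-T24 did not. After the values had been seen, each group was set relative to the sum of H2-K1 and H2-D1 in the same sample, a measure in which a single factor per sample cancels. Quantile normalization is no such factor, and the shares were not computed under it. It took the log2 difference of H2-K1 and H2-D1 together from 0.55 to 0.40 and that of the H2-Q genes from 1.01 to 1.03. The H2-T genes stayed at 0.83. H2-Q4, H2-Q6 and H2-Q7 amounted to 8.13%, 6.65%, 8.47% and 9.95% of that sum in WT and to 11.3%, 11.04%, 11.2% and 11.4% in miR-21-/- TAMs. H2-T22, H2-T23 and H2-T24 amounted to 12.2%, 12.6%, 11.6% and 12.6% in WT and to 14.6%, 15.1%, 14.5% and 15.2% in miR-21-/- TAMs. Most of this sum is H2-T23, and H2-T24 alone, at 1.03 ± 0.149% in WT and 0.970 ± 0.0655% in miR-21-/- TAMs, overlapped between the groups (exact permutation test, two-sided, p = 0.486). H2-M3 went the other way, from 1.69%, 2.02%, 1.76% and 1.60% in WT to 1.37%, 1.39%, 1.36% and 1.39% in miR-21-/- TAMs. With quantile normalization the log2 fold change of H2-M3 was 0.28, nearer to the 0.40 of the pair than with the authors' scaling (0.19 and 0.55). That of H2-T24 was then 0.55, above the pair, against 0.46 with the authors' scaling. The shares of the H2-Q genes, the H2-T genes and H2-M3 were free of overlap (exact permutation test, two-sided, p = 0.0286 each), and the miR-21-/- samples were within 0.353 percentage points of each other in the first share, where the WT samples ranged over 3.31 points.

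**Figure D3:**
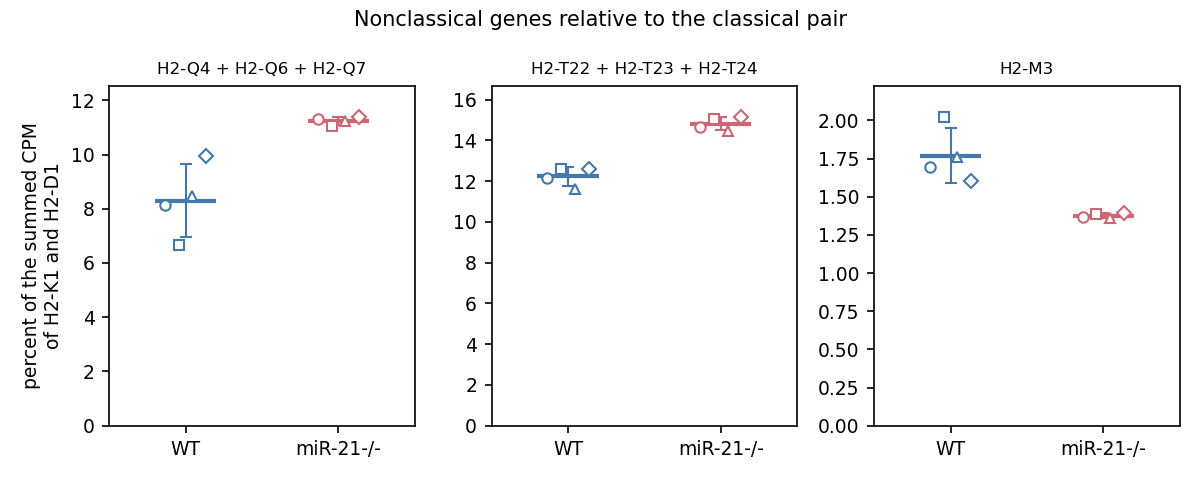
The H2-Q genes, the H2-T genes and H2-M3 as percent of the summed CPM of H2-K1 and H2-D1 in each sample, with replicates by marker shape (1 circle, 2 square, 3 triangle, 4 diamond) and mean ± SD by the bars. The first 2 shares are higher and that of H2-M3 is lower in the miR-21-/- samples, without overlap.

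Measured against B2m, the light chain they pair with, the heavy chains did not all move alike. The log2 ratio to B2m was higher in miR-21-/- TAMs by 0.41 for H2-Q4 (standard error 0.12, limma adjusted p = 0.0034) and by 0.39 for H2-T23 (standard error 0.11, limma adjusted p = 0.0025). Both passed at 0.005, with no limit on fold change here. H2-Q6 and H2-Q7 differed by 0.53 and 0.49 with limma adjusted p = 0.0068 and 0.0051, and their groups overlapped. H2-M3 differed by -0.35 (limma adjusted p = 0.0080). For H2-K1 the difference was -0.035 (95% interval -0.27 to 0.20), for H2-D1 0.046 (-0.19 to 0.28), for H2-T22 0.13 (-0.099 to 0.37) and for H2-T24 -0.086 (-0.34 to 0.16), none of which passed. In this fit 1.25% of all tested genes were called higher and 78.3% in either direction, most of them lower against B2m, which was itself higher. With so many genes called, the adjustment changed p little, as from 0.0019 to 0.0025 for H2-T23 (limma). The count of 2 heavy chains was 5 without WT replicate 4, where H2-Q6 (0.70), H2-Q7 (0.64) and H2-M3 (-0.37) passed too, 1 without WT replicate 2, 1 without WT replicate 3, 3 without miR-21-/- replicate 3 and 0 without WT replicate 1 or miR-21-/- replicate 1, 2 or 4.

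Per kilobase of transcript, which allows genes to be compared, B2m had the highest level in both genotypes (1743 ± 186 CPM per kilobase in WT and 2530 ± 104 in miR-21-/- TAMs). H2-D1 (625 and 936) and H2-K1 (598 and 842) came next, followed by H2-T23 (120 and 229), H2-Q4 (54.7 and 104), H2-Q7 (47.4 and 93.4), H2-T22 (44.8 and 71.1) and H2-M3 (27.9 and 31.9). H2-T24 (10.7 and 14.8) and H2-Q6 (21.8 in miR-21-/- TAMs) were lowest, in that order in WT and in the reverse order in miR-21-/- TAMs. In WT the sample ranges of the neighbours H2-D1 and H2-K1, H2-Q4 and H2-Q7, H2-Q7 and H2-T22, and H2-T24 and H2-Q6 overlapped. In miR-21-/- TAMs only those of H2-Q4 and H2-Q7 did. The 9 heavy chains per kilobase came to 0.881 ± 0.060 of B2m in WT and 0.928 ± 0.070 in miR-21-/- TAMs. H2-K1 and H2-D1 held 79.5 ± 0.82% of the heavy chain level per kilobase in WT and 75.9 ± 0.25% in miR-21-/- TAMs.

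The other genes of the pathway were taken from a list of 25 that load class I molecules or control their transcription. All 25 were tested, 16 were higher and 9 lower, and 11 passed the threshold, all of them higher in miR-21-/- TAMs, beside 2.97% of all tested genes. The median log2 fold change of the list was 0.34. Among the transcription factors, the largest increase was that of Irf1, at 1.63 on the log2 scale (121 ± 17.9 against 376 ± 51.7 CPM). Nlrc5, the transactivator of class I promoters, rose by 0.96 on the log2 scale (103 ± 12.4 against 200.5 ± 21.3 CPM). The DNA-binding factors that Nlrc5 works with did not pass. Rfxank had the lowest value of the list at -0.39 (limma adjusted p = 0.065), and Nfya was at -0.30 (75.1 ± 5.29 and 60.8 ± 2.84 CPM, no overlap, limma adjusted p = 0.0049), which missed the limit on fold change alone.

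8 of the genes that passed act on the peptide. The transporter genes Tap1 and Tap2 rose by 0.92 and 0.74 on the log2 scale. Tapbp, which encodes tapasin, the bridge between the transporter and the heavy chain, rose by 0.93 and its relative Tapbpl by 0.96. The immunoproteasome subunits Psmb8, Psmb9 and Psmb10 rose by 0.66, 0.79 and 0.59 and the proteasome activator Psme2 by 0.83. The general chaperones of the endoplasmic reticulum were not among them, with log2 fold changes of -0.13 for Calr, -0.13 for Canx, 0.092 for Pdia3 and -0.13 for Hspa5. In 9 of the 11 genes that passed, WT replicate 4 was the highest WT sample, as in the class I genes. The same 11 genes passed without WT replicate 4.

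Of 42 other genes with a class I fold, 35 were in the table and 13 passed the filter, of which 7 were higher and 6 lower. Genes whose products pair with B2m did not move as one. Fcgrt, the heavy chain of the neonatal Fc receptor, fell by 1.59 on the log2 scale (198 ± 49.3 to 63.9 ± 6.64 CPM, limma adjusted p = 9.81e-05), the lowest value of the list. Hfe, which controls iron uptake, fell by 1.00 (116 ± 18.0 to 57.1 ± 7.07 CPM, limma adjusted p = 0.000230). Mr1 and Cd1d1, which present vitamin metabolites and lipids, had log2 fold changes of -0.14 and 0.31 and did not pass. Procr, the endothelial protein C receptor, rose by 1.53 (3.28 ± 0.553 to 11.5 ± 2.35 CPM), the highest of the list, and Raet1d, a ligand of the NKG2D receptor, by 1.24 (11.5 ± 4.12 to 27.4 ± 3.09 CPM). Neither of their products binds B2m. The median of the list was 0.26. Of the 13, 4 passed the threshold, 2 higher and 2 lower, beside 2.97% and 4.27% of all tested genes, and 5 passed without WT replicate 4.

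None of the 10 tested MHC class II genes, out of 11, passed the threshold in limma, beside 7.24% of all tested genes. At an unadjusted p under 0.05 there were 2, H2-Oa and H2-Ob, both lower, beside 47.1% of all tested genes at that limit. Their log2 fold changes ran from -0.70 for H2-Oa (limma adjusted p = 0.0057) to 0.18 for H2-DMa, with a median of -0.13. Surface MHC II was part of the sort gate, so this list is not free of it.

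**Figure D4:**
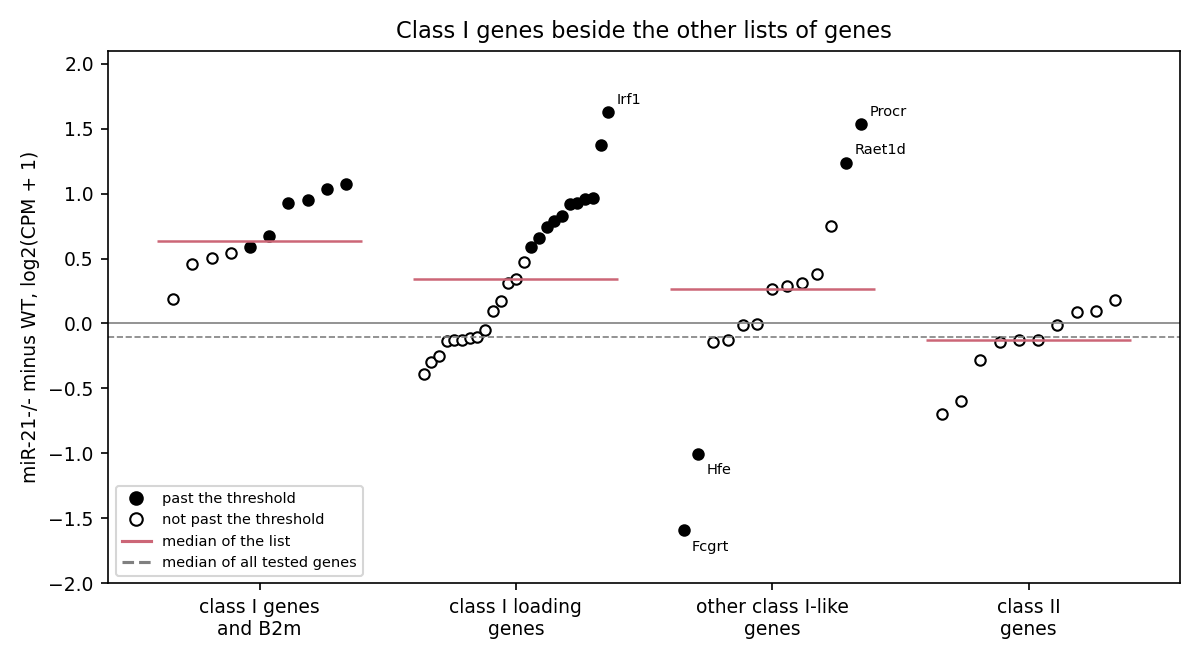
Log2 fold change of miR-21-/- over WT TAMs for each tested gene of the 4 lists, with filled points past the threshold, red lines at the list medians and the dashed line at the median of all tested genes. The class I genes are all above 0, the class I-like genes have Fcgrt at -1.59 and Hfe as their lowest members, and no class II gene passed.

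Between the outermost heavy chains on chromosome 17, 99 tested genes are no class I genes, and 7 of them (7.07%) passed the threshold, beside 7.24% of all tested genes. 6 were higher (Tap1, Tap2, Psmb8, Psmb9, Ppt2 and Tnf), beside 2.97% of all tested genes, and 1 was lower (Rxrb), beside 4.27%, named here after their values were seen. The median log2 fold change of the 99 was -0.093, close to that of all genes. The first 4 belong to the loading list.

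How far the 10 genes varied together among samples of the same genotype rested on WT replicate 4. After the genotype means were subtracted, the 45 pairs had Pearson's r between 0.17 and 0.99 with a median of 0.76 over 8 samples. Without WT replicate 4, an alternative added after the data had been seen, r ran from -0.86 to 0.93 with a median of 0.30 over 7 samples. The genes share the scaling of the samples, and all but H2-T24 share WT replicate 4 as their highest WT sample. The 9 pairs with H2-T24 had r of 0.19 to 0.40 over 8 samples and of -0.29 to 0.20 without WT replicate 4. The genes whose log2 values were most like the mean of the 10 over the 8 samples included Tap1 (r = 0.993), Igtp (0.989), Tlr3 (0.987) and Klrk1 (0.987), among 13353 genes. Without WT replicate 4 these values were 0.997, 0.999, 0.994 and 0.997 over samples that include the difference between the genotypes. Igtp encodes an interferon-inducible GTPase, Tlr3 a sensor of double-stranded RNA and Klrk1 the NKG2D receptor. After subtracting the genotype means they included Igtp (0.990), Htra4 (0.979), Tap1 (0.970) and Otud1 (0.965). Without WT replicate 4 they were 0.967, 0.873, 0.875 and 0.941, and Htra4 and Tap1 then ranked 120 and 113 among all genes. In Igtp, WT replicate 4 had 74.0 CPM, against 41.8 to 50.3 CPM in the other WT samples and 148 to 186 CPM in miR-21-/- TAMs. Htra4 did not differ between genotypes past the threshold (1.02 ± 0.984 against 1.42 ± 0.335 CPM).

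Markers of other cells were present in the sorted samples. The summed level of 5 fibroblast markers was 64.0 to 129 CPM in WT and 9.93 to 40.4 CPM in miR-21-/- TAMs, with 4 of 5 past the threshold downward (4.27% of all tested genes) and WT replicate 4 the highest. Of 6 neutrophil markers the sum was 769 to 1168 CPM in WT and 574 to 747 CPM in miR-21-/- TAMs, of 4 B cell markers 10.8 to 16.8 and 3.60 to 10.0 CPM, and of 5 epithelial or tumor cell markers 18.8 to 24.8 and 12.7 to 17.9 CPM. These sums were lower in miR-21-/- TAMs without overlap. None of the 6 neutrophil markers passed the threshold, and Csf3r alone was lower without overlap. Ly6g went the other way with overlap (1.91 ± 0.711 and 2.59 ± 0.756 CPM, log2 fold change 0.31). Sums of the markers of T cells (15.3 to 37.3 and 7.18 to 32.9 CPM), NK cells (3.39 to 10.8 and 6.80 to 18.1 CPM), dendritic cells (11.2 to 19.9 and 15.2 to 38.4 CPM) and endothelial cells (151 to 299 and 198 to 286 CPM) overlapped between the groups. Within these lists the markers did not move as one. Of 6 T cell markers, Cd4 fell from 16.6 ± 10.0 to 2.19 ± 1.15 CPM and passed, while Cd8a had a mean of 1.92 ± 0.413 CPM in the WT samples against 6.71 ± 3.66 CPM in the miR-21-/- samples, without overlap (log2 fold change 1.28, limma adjusted p = 0.0081, not past the threshold). Cd3d, Cd3e and Cd3g had log2 fold changes of 0.0019, 0.26 and 0.29 and Cd8b1 of 0.69, with overlap. Of 6 dendritic cell markers none passed. Clec9a, of cross-presenting dendritic cells, had 2.54 ± 0.195 and 8.18 ± 4.29 CPM, without overlap (1.26, limma adjusted p = 0.0053), and Xcr1, of the same cells, a log2 fold change of 1.06 with overlap. Zbtb46, Flt3, Cd209a and Ccr7 had -0.41, -0.50, -1.28 and -0.031, also with overlap. Of 5 NK cell markers only Prf1, which encodes perforin, passed the filter on low values, at 3.85 ± 2.28 and 9.74 ± 4.44 CPM with overlap (limma adjusted p = 0.026). The others had means under 1 CPM, at 0.340 and 0.123 for Ncr1, 0.491 and 0.391 for Klrb1c, 0.944 and 0.951 for Gzma, and 0.187 and 0.244 for Eomes. Among the WT samples, replicate 4 had the highest sums for macrophages, B cells, NK cells, fibroblasts and endothelial cells. No marker was at 0 in all samples. The part of these cells in the class I levels was not tested.

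The seed of miR-21 was searched for in the 3′ untranslated regions of the 10 genes, since a direct target could rise when the miRNA is absent. The mature miRNA of mouse, from chr11:86584120-86584141 on the minus strand of GRCm38.p6, is printed with its seed (bases 2 to 8) in capitals.
miR-21a-5p: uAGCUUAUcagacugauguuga
None of the 10 genes had a site of 7 or 8 bases that pairs with the seed (ATAAGCTA is the site of 8 bases). This held for the longest 3′ untranslated region and for the other annotated coding transcripts, leaving out those marked as incomplete at the 3′ end. The 6-base core TAAGCT occurred once each in H2-D1 and H2-T24.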

How the data were processed

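RNA-Seq libraries of mRNA were made from 4 WT and 4 miR-21-/- TAM samples. The authors deposited CPM values, with 0.0001 added, for 53247 genes. The submitters' processing notes name STAR, mm10 and Partek 7.0, while the counting rule and use of strand are not given in the sources used here. GENCODE vM21 gave the same start for 96.9% of the symbols found in it. Between 72.2% and 73.4% of values up to 20 reads were whole reads (within 0.02), so counts were not recovered and no count test was run.

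Genes with a mean of at least 1 CPM (13363) were fitted as log2(CPM + 1) by limma 3.58.1 (R 4.3.3, eBayes with trend), tested on simulated data beforehand. Fold changes on this scale understate the change of low genes. Sums were compared by exact permutation over the 35 splits. For the lists, genes past the threshold and the highest and lowest were named, with the 5 genes most like the 10 by each correlation. 1 gene that this rule selects is not reported here. The 10 genes and all lists were chosen with earlier results of these data known. Alternatives concerned the pseudocount, filter, scaling, trend, sample weights, replicate block, limits and each sample left out. The 4 samples per genotype limit the precision, as do few reads in low genes.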

Additional observations from a re-analysis of the deposited data

Results flagged for a closer look

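Over the 70 groups of 4 samples examined for the class I genes, B2m and the loading genes, 6 had a sample far from the other 3. Chance gives about 1 in 20 for independent groups. These groups share samples and hold genes that vary together, so the count shows no excess. In 4 of the 6 it was WT replicate 4. It had 102 CPM of H2-T22, next to 73.3 CPM in the nearest WT sample, 218 CPM of H2-T23 next to 166 CPM, 77.5 CPM of the immunoproteasome subunit Psmb9 next to 54.3 CPM, and, in the other direction, 10.12 CPM of Rfxap next to 11.2 CPM. Among the miR-21-/- samples, replicate 3 had 38.5 CPM of H2-Q6 next to 46.9 CPM, and replicate 1 had 90.8 CPM of the proteasome activator Psme3 next to 99.5 CPM.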

How the results depend on the processing

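All 10 genes were higher in miR-21-/- TAMs in each limma fit, and H2-Q4 and H2-T23 passed in each fit at a fold change over 1.5. The count of 6 genes was 2 with no filter on low values and 2 at a fold change over 2 (H2-Q6 and H2-Q7). It was 2 to 8 with 1 sample left out. The 967 genes past the threshold overall became 453 with a pseudocount of 10, 547 with no filter, 372 at a fold change over 2 and 4917 at an adjusted p of 0.05 without fold limit. Heavy chains past the threshold against B2m were 4 with a pseudocount of 10, 4 with the replicate block and 0 to 5 with 1 sample left out. Class II genes past the threshold were 1 without the trend and 0 to 1 with 1 sample left out. The log2 difference of the summed level was 0.54 to 0.68 for the 10 genes and 0.56 to 0.71 for the 9 heavy chains with 1 sample left out, with exact p = 0.0571 when it was a miR-21-/- sample. In these cases the cause was not tested, apart from the fewer samples.

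Replicate numbers were not taken to pair the samples. The miR-21-/- numbers used here differ from those in the sample labels, and the label of replicate 4 holds none. Deviations of samples with the same number here correlated at 0.086, -0.11, -0.15 and 0.23. By the numbers in the labels, WT replicate 3 would go with miR-21-/- replicate 2 (0.14) and WT replicate 4 with miR-21-/- replicate 3 (0.034). With the replicate block, which rests on the numbers used here, 5 of the 10 genes passed, all but H2-Q6 of the 6. Summed levels kept their log2 differences of 0.59 (10 genes) and 0.61 (heavy chains), and 4 pairs allow no exact p under 0.125. The 3 shares relative to H2-K1 and H2-D1 had an exact p = 0.125 as well. With 1 sample left out, they differed by 0.35 to 0.54, 0.25 to 0.29 and -0.40 to -0.29 on the log2 scale for the H2-Q genes, the H2-T genes and H2-M3, and the first had an exact p = 0.0571 without a miR-21-/- sample.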
